A study of Mus musculus with 15 samples.

Results

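The miR-29 family was measured by 6 of the 584 miRNA assays, namely mmu-miR-29a, mmu-miR-29b and mmu-miR-29c, which read the guide strands, and mmu-miR-29a*, mmu-miR-29b* and mmu-miR-29c*, which read the star strands. The prefix for mouse is left out from here on. They were chosen by name alone, as every assay called miR-29a, miR-29b or miR-29c with any arm suffix. MiRNA levels were read by real-time PCR on TaqMan low density arrays, a pair of cards called A and B, in 15 samples of mouse cell lines. αTC1-6 is a cloned glucagon-producing line from a mouse glucagonoma and βTC1 is an insulin-producing line from a mouse insulinoma, both taken from tumours of transgenic mice in which the glucagon or the insulin promoter drove a viral large T antigen, so they stand for islet α and β cells only in part. Each of the 5 groups held 3 samples: untreated αTC1-6 at 24 h and at 48 h, αTC1-6 at 24 h and 48 h post treatment (PT) with cytokines, and untreated βTC1 at 24 h. The cytokine mixture held IL1b at 50 IU/ml, IFNg at 1000 IU/ml and TNFa at 1000 IU/ml. No βTC1 sample was treated, and the methods describe the culture medium of each line separately, so line and medium cannot be told apart.

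The guide strands of the family share their seed, the bases that pair with target mRNAs, and are thus held to repress overlapping sets of targets, among which mRNAs of collagens and of DNA methyltransferases are well known. In β cells miR-29 is known for silencing the lactate and pyruvate transporter Mct1, a gene that β cells keep low, and it has been linked to the response of islets to inflammatory cytokines. The star strands come from the other arm of the same hairpins and are usually the less stable product. No mRNA was measured here, so no target could be followed and the lines could not be checked against their hormone transcripts.

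The guide strands are shown because their near identity sets what the assays can tell apart. The mature sequences, from RefSeq on GRCm38.p6, run 5′ to 3′ with the seed (bases 2 to 8) in capitals.
miR-29a-3p: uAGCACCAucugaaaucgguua
miR-29b-3p: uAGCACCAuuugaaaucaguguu
miR-29c-3p: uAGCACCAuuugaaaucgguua
All of them carry the seed AGCACCA, which 3 of the 1679 mature names in that table hold, all of the miR-29 family. Counted from 1 at the 5′ end, miR-29c-3p differs from miR-29a-3p by C10U alone, with 21 of 22 bases identical. The token gives the first miRNA's base, the position and the second miRNA's base. From miR-29a-3p to miR-29b-3p the changes over the 22 bases compared were C10U, G18A, U21G and A22U, and miR-29b-3p is 1 base longer. How far the assays of miR-29a and miR-29c cross-react over a single base was not tested.

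The star assays carry older names without an arm number and were read as the 5p strands, which are shown because, unlike the guides, they do not share a seed.
miR-29a-5p: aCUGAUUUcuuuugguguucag
miR-29b-1-5p: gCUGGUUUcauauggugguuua
miR-29b-2-5p: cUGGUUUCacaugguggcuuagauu
miR-29c-5p: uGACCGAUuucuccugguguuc
The seeds of miR-29a-5p, miR-29b-1-5p and miR-29c-5p each belong to 1 mature name in the table, and that of miR-29b-2-5p is shared with miR-6338. The name miR-29b* does not say which of the 2 miR-29b hairpins its assay reads.

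The family comes from 4 hairpins in 2 pairs. Mir29a (chr6:31062660-31062747) and Mir29b-1 (chr6:31063023-31063093) lie on the minus strand of chromosome 6, with 275 bases between them and no annotated gene spanning both. Mir29b-2 (chr1:195037040-195037120) and Mir29c (chr1:195037547-195037634) lie on the plus strand of chromosome 1, with 426 bases between them, within the span of the lncRNA gene A330023F24Rik. Both miR-29b hairpins give the same 23-base guide, at chr6:31063025-31063047 and at chr1:195037091-195037113, so the miR-29b assay sums the 2 pairs, whereas miR-29a (chr6:31062673-31062694) and miR-29c (chr1:195037600-195037621) each belong to 1 of them.

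A Ct is the PCR cycle at which the signal crosses a threshold, so a lower value means more miRNA. ΔCt is the Ct minus that of miR-26a in the same sample, and 1 cycle is 1 unit on the log2 scale. All 90 miR-29 values came from a Ct below 40, the value given to undetermined wells, and the star assays were in duplicate wells that differed by a median of 0.0613 cycles. The Ct of miR-26a, which enters every ΔCt, ranged from 16.975 to 18.983 over the samples, and in αTC1-6 replicate 1 was the highest of its group in all 4 conditions. Before normalization 36.1% of 7691 Ct values, 44 of the 90 miR-29 values among them, had decimals of 0.9 or more, and the part of this in the results was not tested. The plant control assay, which has no mouse target, had a Ct in 12 samples on card B, as low as 4.57, and in 6 samples on card A.

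All guide strands were higher in untreated αTC1-6 than in untreated βTC1 at steady state, the question being how the lines differ before any treatment. The difference was 4.89-fold for miR-29a, 4.30-fold for miR-29b and 3.04-fold for miR-29c, and all passed the test. The star strands had values 4.02-fold, 2.38-fold and 1.62-fold higher and did not pass. Adjustment was made within each card, with the guides on card A and the stars on card B. Before it the limma p was 0.0184 for miR-29a* and 0.0173 for miR-29b, so the calls do not set these 2 apart. RNA was taken from whole cultures, so more miRNA per cell and more cells that hold it cannot be told apart. Among all 480 assays tested in this comparison 29.6% passed, 11.9% as higher and 17.7% as lower in αTC1-6, against 3 of the 6 miR-29 assays, all higher. The median log2 difference of the 6 was 1.81, beside -0.52 for all assays tested, and all 6 lay above 0, as did 38.1% of all.

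MiR-29a, whose Ct was the lowest of the family in each sample, had ΔCt values of -2.05, -1.62 and -1.10 in untreated αTC1-6 and of 0.53, 0.17 and 1.40 in βTC1. Every αTC1-6 sample lay above every βTC1 sample in level, and in αTC1-6 the Ct of miR-29a was below that of miR-26a. Assays can differ in efficiency, so levels were compared between samples of an assay and not between assays. The means were -1.59 ± 0.474 and 0.70 ± 0.631 (SD, n = 3 each). The log2 difference was 2.29 (SE 0.538, limma with Benjamini-Hochberg adjusted p = 0.0173). Before normalization the 3 Ct values of βTC1 were 18.908, 18.905 and 18.931, so that the spread of its ΔCt was nearly all that of miR-26a.

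For miR-29b, the guide that both pairs of hairpins encode, ΔCt was 3.47, 4.41 and 5.02 in untreated αTC1-6 and 6.36, 5.74 and 7.11 in βTC1. The groups did not overlap, although the third αTC1-6 sample and the second βTC1 sample lay within 1 cycle of each other. The log2 difference was 2.10 (SE 0.630, limma adjusted p = 0.0395).

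MiR-29c, the guide encoded on chromosome 1 alone, had ΔCt values of 0.99, 2.02 and 1.91 in untreated αTC1-6 and of 3.27, 3.23 and 3.23 in βTC1. Here the βTC1 samples were nearly equal after normalization (SD 0.020), whereas before it their Ct spread from 20.768 to 21.968. The log2 difference was 1.60 (SE 0.466, limma adjusted p = 0.0372).

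The star strand miR-29a* was the closest of the card B assays to its guide in the size of the difference. Its ΔCt was 5.98, 6.41 and 6.28 in untreated αTC1-6 and 8.51, 7.16 and 9.02 in βTC1. The groups did not overlap, and the log2 difference of 2.01 (SE 0.611) had a limma adjusted p of 0.131 on card B, where 4.02% of the 199 assays tested passed as higher, beside 17.4% of 281 on card A. For miR-29b* the values were 5.89, 7.42 and 7.83 in αTC1-6 against 8.54, 7.25 and 9.10 in βTC1, and for miR-29c* they were 7.81, 7.71 and 8.58 against 8.81, 8.17 and 9.21. Both pairs of groups overlapped through the second βTC1 sample. The log2 differences were 1.25 (SE 0.776, adjusted p = 0.416) and 0.70 (SE 0.509, adjusted p = 0.495) in the limma fit. Groups did not overlap for 4 of the 6 assays, while among the 439 assays for which this could be judged 17.8% were higher and 28.2% lower without overlap.

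With 3 samples a group the exact permutation test could not go below p = 0.1, which the 3 guides and miR-29a* reached. The calls rested on all of the samples: the number of miR-29 assays past the threshold was 0 when αTC1-6 replicate 1 was left out, as it was for αTC1-6 replicate 2 and for βTC1 replicate 1. It was 1 when the third replicate of either line was left out, and 2, miR-29a and miR-29a*, with the second of βTC1 left out. With U6 and small nucleolar RNAs as the reference in place of miR-26a 1 assay, miR-29a, passed (limma adjusted p = 0.0269, against 0.000593 to 0.0363 over the alternatives that kept all replicates and 0.0276 to 0.0747 with a replicate left out). The direction was the same for all 6 assays under all of these settings.

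**Figure D1:**
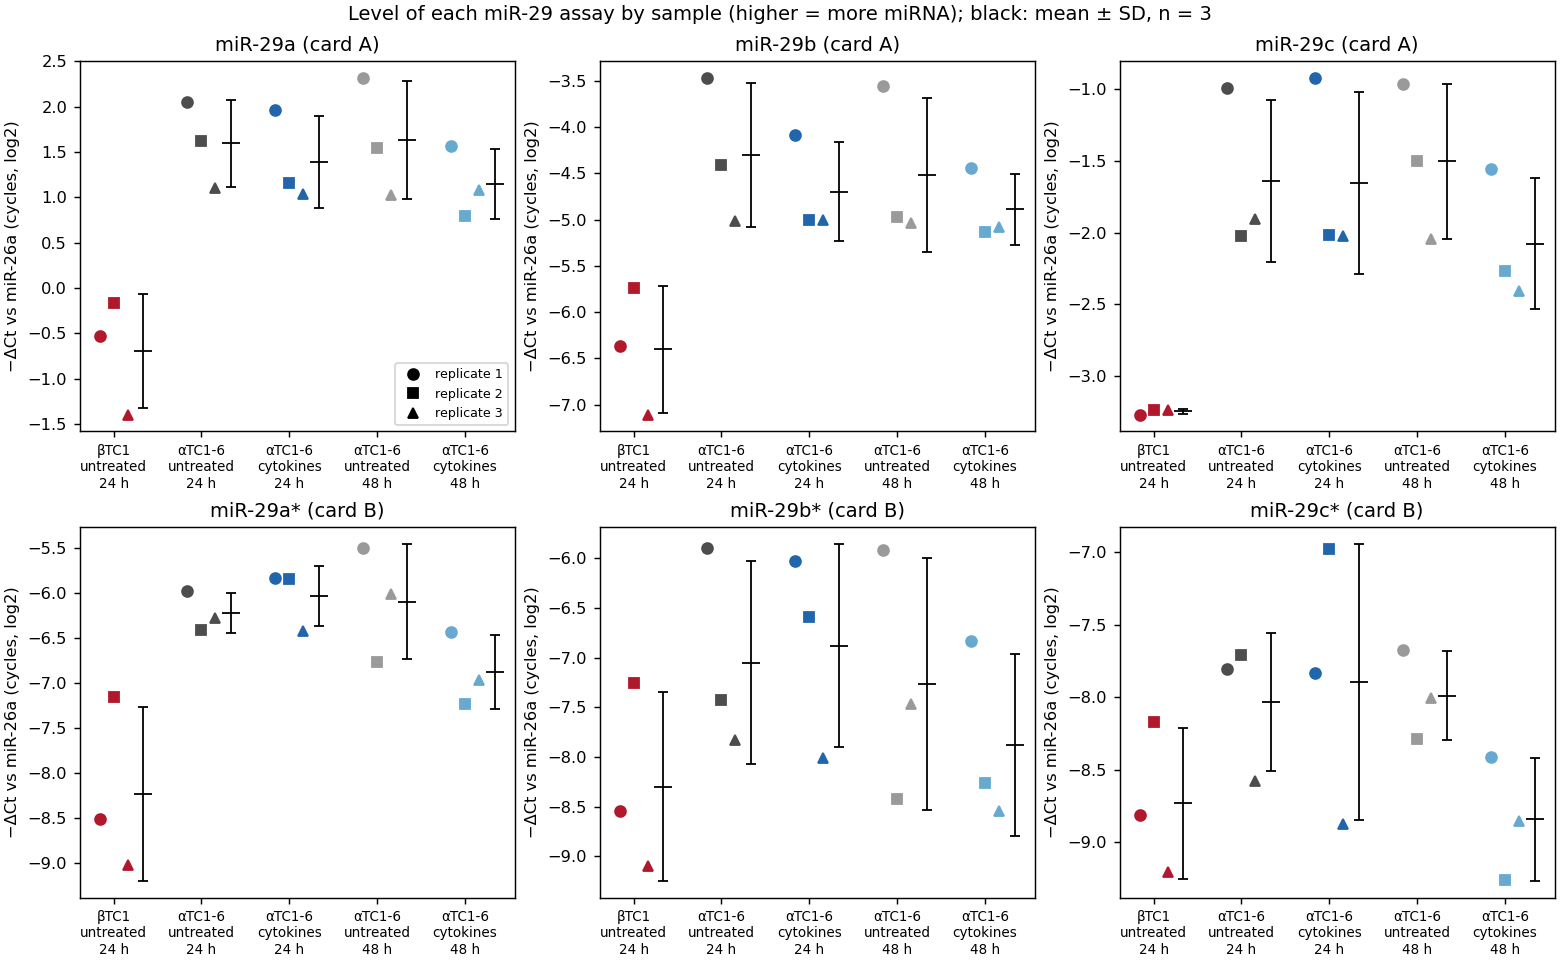
The plot gives the level of each miR-29 assay as the negative ΔCt against miR-26a (y axis, cycles on a log2 scale, each panel with its own range) in the 5 groups (x axis), with a symbol for each replicate and the mean ± SD (n = 3) in black beside them. In the 3 guide strand panels all 12 αTC1-6 samples lie above the 3 βTC1 samples, and in the star strand panels the 2 lines overlap.

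**Figure D2:**
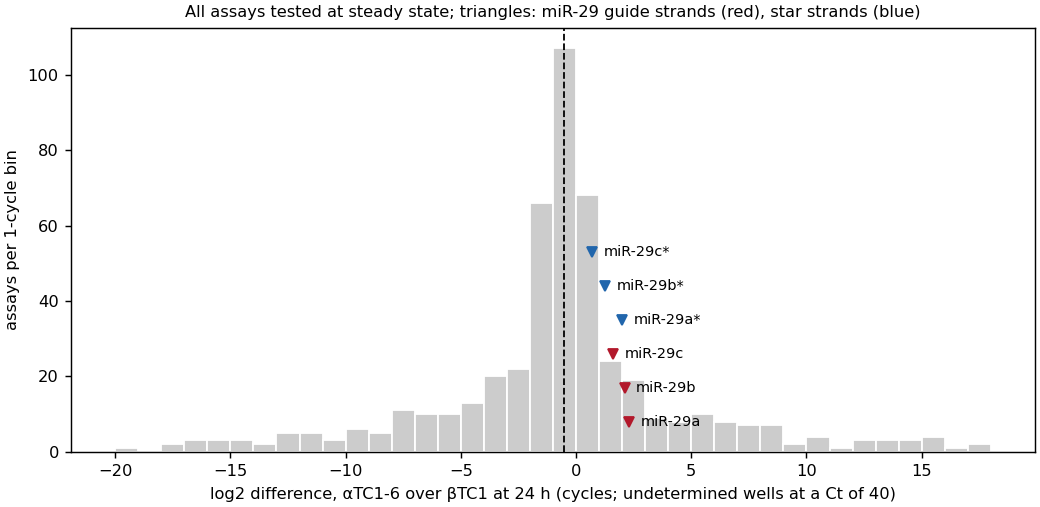
Bars count the 480 assays tested at steady state by their log2 difference, αTC1-6 over βTC1 (x axis, 1-cycle bins), with the dashed line at their median of -0.52, and triangles mark the miR-29 assays at a height that carries no value. The 6 assays lie right of the median, from 0.70 to 2.29, inside the bulk of the distribution, and the far tails hold differences set against undetermined wells at a Ct of 40.

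Among all 480 differences, ordered from the most increased in αTC1-6, the miR-29 assays ranked from 83 for miR-29a to 127 for miR-29c*. The size of the difference was compared between members, over samples, for 15 pairs of assays. The largest gap was between miR-29a and miR-29c*, whose ΔCt differed by 9.63 ± 0.270 cycles in αTC1-6 and by 8.03 ± 0.239 in βTC1 (SD, n = 3), so that the steady state difference of miR-29a was larger by 1.59. The exact two-sided permutation p was 0.1, the smallest that 3 against 3 samples allow, and 0.375 after adjustment over the 15 pairs. MiR-29a and miR-29b, which share the chromosome 6 pair, differed from each other by 0.19 in their steady state difference (exact p = 0.4, adjusted 0.545). MiR-29a and miR-29c, from different chromosomes, differed by 0.69 (exact p = 0.3, adjusted 0.545). No pair differed by a p that passes 0.05, which the design cannot reach.

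After cytokine treatment for 24 h no miR-29 assay passed the test, and the values stayed within 0.40 cycles of the untreated samples on average. The question was whether the family responds to the cytokines in αTC1-6, and the untreated samples are the same as those of the comparison with βTC1. In this comparison 0.225% of the 445 assays tested passed, and 0 miR-29 assays did. At an unadjusted p under 0.05 it was 4.49% of all and again 0 of the miR-29 assays. The log2 differences ran from -0.40 for miR-29b to 0.19 for miR-29a*, with 3 below and 3 above 0 where 58.9% of all assays were below, and the limma adjusted p-values from 0.963 to 0.987.

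After 24 h with cytokines the ΔCt of miR-29a was -1.97, -1.15 and -1.03, inside the range of the untreated samples but for the last. The mean of -1.38 ± 0.508 (SD, n = 3) gave a log2 difference of -0.21, with a 95% interval from -1.33 to 0.92. MiR-29b had ΔCt values of 4.08, 5.01 and 5.01, and miR-29c had 0.92, 2.02 and 2.02. Replicate 1 had the highest level of each guide after normalization, in treated and untreated samples alike. Its Ct of miR-26a was also the highest of its group. Before normalization its untreated Ct of miR-29a, 16.931, was above the 15.928 and 16.582 of the other replicates. The 95% interval of the log2 difference ran from -1.78 to 0.98 for miR-29b and from -1.29 to 1.27 for miR-29c. A fall of 1 cycle thus lay within the interval of all 3 guides in this fit, which does not use the replicate numbers. With the replicate number in the fit the SEs of miR-29a, miR-29b and miR-29c were 0.186, 0.227 and 0.159. Without it they were 0.447, 0.549 and 0.508, so the intervals given here are the wider ones. The statement on a fall of 1 cycle was made from these wider intervals alone and need not hold with the smaller SEs.

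At 24 h with cytokines the star strands gave ΔCt values of 5.84, 5.84 and 6.42 for miR-29a*, of 6.03, 6.59 and 8.01 for miR-29b*, and of 7.83, 6.98 and 8.87 for miR-29c*. The treated and untreated groups overlapped for all of them and for the guides, while of the 391 assays judged 5.37% were higher and 6.39% lower without overlap. Set against the untreated sample of the same number, the log2 differences were 0.14, -0.13 and -0.03 in replicate 1. They were 0.57, 0.83 and 0.73 in replicate 2 and -0.14, -0.18 and -0.30 in replicate 3.

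After 48 h with cytokines all 6 assays had mean values below those of the untreated samples, by 0.37 to 0.85 cycles, and none passed the test. Values below 0 were common among all assays in this comparison. The median log2 difference over the 534 assays tested was -0.51, beside -0.59 for the miR-29 assays, and 74.7% of all assays lay below 0. In the fit without the replicate number, 0.562% of the assays tested and 0 of the miR-29 assays passed the threshold. An unadjusted p under 0.05 was given to 11.2% of all and to 0 of the miR-29 assays. The difference between the U6 and small nucleolar RNA controls and miR-26a was -2.50 ± 0.517 cycles in the untreated and -1.90 ± 0.454 in the treated samples (SD, n = 3). The log2 differences with these controls as the reference are given below. Which of the references moved was not tested.

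For miR-29a the untreated samples of 48 h had ΔCt values of -2.32, -1.55 and -1.02 and the treated ones -1.56, -0.79 and -1.08, which overlap. The log2 difference was -0.48 (SE 0.462, limma adjusted p = 0.829). MiR-29b went from 3.56, 4.97 and 5.04 untreated to 4.45, 5.14 and 5.09 treated, and miR-29c from 0.970, 1.502 and 2.043 to 1.56, 2.27 and 2.41. Replicate 1 held the highest guide levels after normalization in both groups again, and again the highest Ct of miR-26a. Their log2 differences were -0.37 (adjusted p = 0.855) and -0.57 (adjusted p = 0.762) in the limma fit.

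Against miR-26a, miR-29c* was the miR-29 assay with the largest difference at 48 h. Its ΔCt was 7.68, 8.29 and 8.01 in untreated and 8.41, 9.26 and 8.85 in treated samples. The groups did not overlap, as for 17.5% of the 513 assays judged in that direction, and the log2 difference was -0.85 (SE 0.366, limma adjusted p = 0.347). MiR-29a* had values of 5.51, 6.77 and 6.01 against 6.44, 7.24 and 6.96, and miR-29b* of 5.91, 8.42 and 7.46 against 6.83, 8.26 and 8.54. Both overlapped, with log2 differences of -0.78 (adjusted p = 0.406) and -0.61 (adjusted p = 0.637) in the limma fit. Against the untreated sample of the same number, miR-29c* differed by -0.73, -0.97 and -0.85. MiR-29a* differed by -0.93, -0.46 and -0.95, and miR-29b* by -0.92, 0.16 and -1.08. With the replicate number in the limma fit the adjusted p of the 6 assays ran from 0.110 for miR-29c* to 0.484 for miR-29b. In that fit 0 of all 534 assays passed after adjustment.

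The sign of the guides at 48 h followed the reference. Centred on the median assay of each sample, the log2 differences of miR-29a, miR-29b and miR-29c were 0.19, 0.31 and 0.11, with the median of all assays at 0.17, and against U6 and small nucleolar RNAs they were 0.11, 0.23 and 0.02, with that median at 0.08. No direction of the guides can therefore be given. Centred in the same way, miR-29a*, miR-29b* and miR-29c* had -0.10, 0.07 and -0.17. Against U6 and small nucleolar RNAs they had -0.19, -0.02 and -0.26. The size of the star strand differences thus also followed the reference.

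No miR-29 assay passed the threshold between untreated αTC1-6 of 48 h and of 24 h, again with the shared 24 h samples. The log2 differences ran from -0.22 for miR-29b to 0.14 for miR-29c. Of the 6, 0 passed, beside 5.93% of the 489 assays tested, and 0 had an unadjusted p under 0.05, beside 8.79% of all. Assays with a Ct on card A numbered 236, 258 and 248 at 24 h and 304, 324 and 318 at 48 h. On card B they numbered 174, 187 and 188 against 189, 184 and 182. Of the 296 assays tested on card A 8.78% passed as higher, and of the 193 on card B 0.518%. The cause of the step on card A was not tested, so culture time cannot be told apart from it. The widest 95% interval, of miR-29b*, ran from -2.37 to 1.94, and the narrowest, of miR-29c*, from -0.95 to 1.04. The cytokine effect at 48 h minus that at 24 h lay between -0.99 for miR-29c* and 0.03 for miR-29b, with limma adjusted p-values from 0.548 to 0.992. In that test 0.21% of the 477 assays passed and 0 miR-29 assays, and without adjustment 3.98% of all and 0 miR-29 assays had a p under 0.05.

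**Figure D3:**
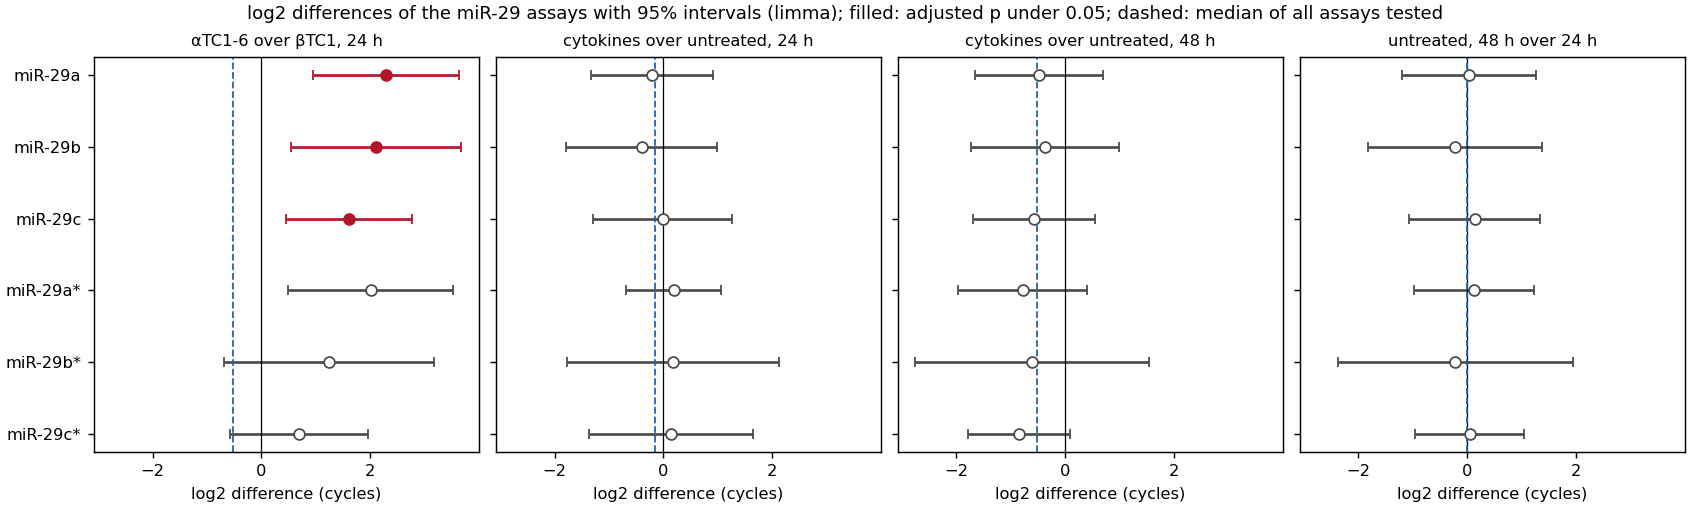
Points give the log2 difference of each miR-29 assay (y axis) in 4 comparisons (panels) with its 95% interval from limma (x axis, cycles), filled where the adjusted p was under 0.05, and the dashed line is the median of all assays tested in that comparison. The 3 guide strands at steady state are the filled points, and the intervals of the cytokine and time comparisons all cross 0.

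Over the 5 conditions the ordering of mean levels against miR-26a was alike for the guides, which share the miR-26a value of each sample. The order of treated and untreated αTC1-6 at 48 h turned with the reference, as given above. MiR-29a ran from untreated 48 h (ΔCt -1.63) over untreated 24 h (-1.59), cytokines 24 h (-1.38) and cytokines 48 h (-1.14) to βTC1 (0.70), and miR-29c had the same order, from 1.505 to 3.243. MiR-29b differed in that untreated 24 h (4.30) came before untreated 48 h (4.52). Neighbouring αTC1-6 conditions overlapped in their samples for every guide, and only the step from the cytokine-treated samples of 48 h to βTC1 was free of overlap.

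The star strands placed cytokines 24 h highest in level, at mean ΔCt values of 6.03 for miR-29a*, 6.88 for miR-29b* and 7.90 for miR-29c*. MiR-29a* and miR-29b* were lowest in βTC1, at 8.23 ± 0.962 and 8.30 ± 0.948, and miR-29c* was lowest in the cytokine-treated samples of 48 h, at 8.84 ± 0.424, next to βTC1 at 8.73 ± 0.521 (SD, n = 3). Neighbours in the order overlapped, except that untreated 24 h and cytokines 48 h did not for miR-29a*.

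Pooled over treatment and time, the 12 αTC1-6 samples spanned ΔCt values of -2.32 to -0.79 for miR-29a, 3.47 to 5.14 for miR-29b and 0.92 to 2.41 for miR-29c. All of them were higher in level than the 3 βTC1 samples, which began at 0.17, 5.74 and 3.23. Of the star strands, 11 of 12 αTC1-6 samples were above all βTC1 samples for miR-29a*, 5 for miR-29b* and 6 for miR-29c*. The share of all assays that separate the 12 samples from the 3 was not counted. With untreated αTC1-6 of 24 h alone, 17.8% of the 439 assays judged were higher and 28.2% lower without overlap.

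**Figure D4:**
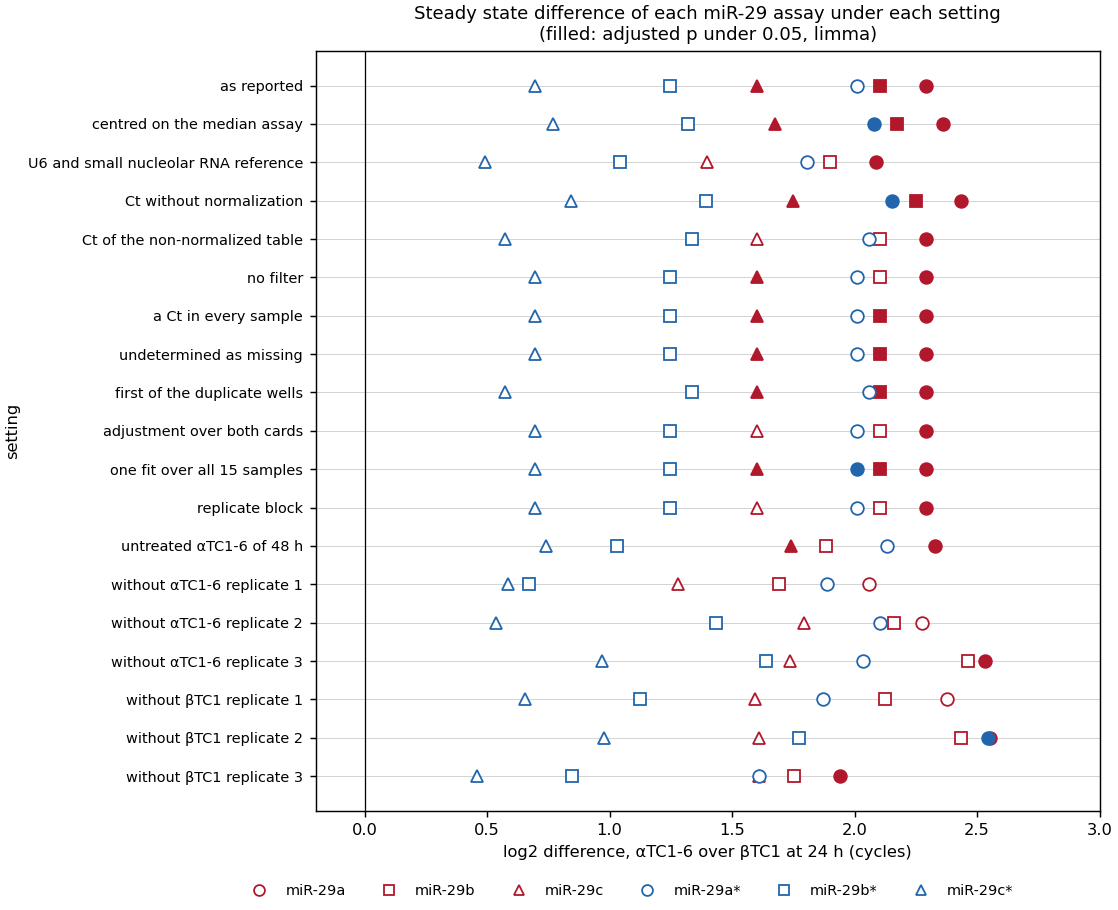
Each line is a setting (y axis) and each symbol the steady state log2 difference of a miR-29 assay, αTC1-6 over βTC1 (x axis, cycles), with guides in red, stars in blue and filled symbols for an adjusted p under 0.05. All values lie above 0, from 0.46 to 2.55, and the number of filled symbols changes from 0 to 4.

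A pair of rat assays also carries miR-29b names and stood outside the naming rule. The assay rno-miR-29b-2* had Ct values from 28.003 to 30.0 over the 15 samples, with a mean ΔCt of 10.6 ± 0.663 in untreated αTC1-6 at 24 h and 11.2 ± 0.831 in βTC1. The assay rno-miR-29b-1* had late Ct values, from 30.338 to 39.404. No test was made of either.

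Other miRNAs were read beside the family by lists. Of the miRNAs linked to cytokines in islets, miR-21, miR-34a, miR-146a and miR-155, 0 of 4 passed at steady state and at 24 h PT, and 1 rose at 48 h PT. That was miR-146a, a target of NF-κB signalling that damps it, with a log2 difference of 3.82 (SE 0.268, limma adjusted p = 0.00458), after 3.30 at 24 h (adjusted p = 0.0985). Before adjustment, miR-146a and miR-34a had a p under 0.05 at 24 h and at 48 h, and 0 of the 4 at steady state. The median of the list was 1.17 at 24 h and 1.16 at 48 h, while the miR-29 assays had medians of 0.06 and -0.59 and the medians of all assays were -0.15 and -0.51.

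Of the 13 miRNAs listed for islet identity and secretion, 11 could be tested at steady state. MiR-200b, a regulator of epithelial identity, was lower in αTC1-6, where it was set against undetermined wells, and no other passed. MiR-375, which is abundant in islets and curbs insulin secretion, had a log2 difference of -1.06 (adjusted p = 0.171 in limma), and miR-7a, another endocrine miRNA, one of 1.24 (adjusted p = 0.229). Under cytokines 0 of 10 tested passed at 24 h and 0 of 13 at 48 h, also before adjustment. In untreated αTC1-6, 2 of 12 passed as higher at 48 h than at 24 h, miR-200a and miR-429. Both are of the miR-200 family and both were set against undetermined wells. The 48 h samples had a Ct for more assays of card A as a whole, as given above. The part of that step in these values was not tested. The lists gave 0 of 4 and 0 of 12 in the difference between the cytokine effects, and 0 of 4 cytokine-linked miRNAs passed between 48 h and 24 h untreated, none of them before adjustment either.

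The assays whose levels followed the mean of the miR-29 guides most closely over the 15 samples, among 272 assays with a Ct in every sample, were miR-410 (Pearson r = 0.928), miR-130b (0.910), miR-136 (0.909), miR-130a (0.904) and miR-382 (0.899). Over the 12 αTC1-6 samples alone r was 0.828, 0.950, 0.867, 0.589 and 0.615 in that order. Of the star strands miR-29a* had an r of 0.895 with the guides, miR-29b* 0.764 and miR-29c* 0.573. All points share the miR-26a value of their sample and the gap between the lines, and the values are a description of these samples.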

How the data were processed

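Levels were read from 15 samples on TaqMan rodent cards A and B. The authors deposited Ct values in a non-normalized table and, in a normalized one, ΔCt (log2 values, Ct minus that of miR-26a) and relative quantities (ratio to miR-26a as deposited). A column of fold changes between samples was not used. Undetermined wells were set to a Ct of 40 and duplicate wells averaged. The negative ΔCt entered limma (version 3.58.1, R version 4.3.3) for each comparison separately, with assays that had a Ct under 40 in at least 50% of the samples compared and Benjamini-Hochberg adjustment within each card, two-sided, at 0.05. Fits were tested on simulated data. The methods call the replicates independent biological replicates. Same-numbered treated and untreated samples deviated together (r from 0.276 to 0.476 at 24 h and 0.259 to 0.443 at 48 h over 278 assays), and a replicate block changed no miR-29 call there. The number of arrays limits the precision, since PCR gives no count of molecules. The lists were chosen with earlier results of these data known, and the members by name. Besides the 6 members, assays named were those of the 2 lists and the 5 most like the mean guide level. Alternatives covered the reference, table, filter, undetermined and duplicate wells, adjustment, samples fitted, the block and each replicate left out.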

Additional observations from a re-analysis of the deposited data

How the results depend on the processing

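At steady state all 6 assays were higher in αTC1-6 under every alternative run, with 3 past the threshold as reported. The number was 1, miR-29a, when U6 and small nucleolar RNAs (small RNAs from here on) were the reference and with the non-normalized table. It was also 1, miR-29a, with adjustment over both cards together and with the replicate block. With adjustment over both cards only the adjusted p moved, in limma to 0.0564 for miR-29b and 0.0533 for miR-29c. For miR-29a* it moved from 0.131 to 0.0580. With the non-normalized table the log2 differences of the guides were the same and 539 assays were tested. Apart from the adjustment, the cause was not tested. The number was 4 with median centring, with no normalization and with 1 fit over all 15 samples, and 2 with no filter and with the untreated αTC1-6 of 48 h. Leaving out 1 replicate gave from 0 to 2. The replicate numbers did not pair the samples there (r from 0.0642 to 0.0945 over 278 assays) nor between 24 h and 48 h (r from -0.04 to 0.24). In the cytokine and time comparisons the number stayed at 0 under every alternative, the replicate block included.

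Signs turned where differences were small. With median centring the log2 difference at 24 h PT became 0.0086 for miR-29a and 0.20 for miR-29c, and without normalization it became -0.0031 for miR-29a*, -0.0203 for miR-29b* and -0.0537 for miR-29c*. At 48 h PT median centring gave 0.19 for miR-29a, 0.31 for miR-29b, 0.11 for miR-29c and 0.0661 for miR-29b*, and the small RNA reference 0.11, 0.23 and 0.0221 for the 3 guides. For the cytokine effect at 48 h minus that at 24 h, miR-29a became 0.15 with median centring, 0.45 with the small RNA reference and 0.0018 without normalization, and miR-29c became 0.16 with the small RNA reference. These scalings add the same shift to all assays of a sample.

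With a replicate left out, the log2 difference at 24 h PT ranged from -0.50 to 0.0218 for miR-29a, -0.76 to 0.0141 for miR-29b, -0.38 to 0.31 for miR-29c, -0.25 to 0.75 for miR-29b* and -0.32 to 0.63 for miR-29c*. At 48 h PT it ranged from -0.62 to 0.11 for miR-29b and -1.19 to 0.0645 for miR-29b*. Between 48 h and 24 h untreated the range was -0.31 to 0.34 for miR-29a, -0.70 to 0.19 for miR-29b, -0.13 to 0.46 for miR-29c, -0.17 to 0.46 for miR-29a*, -0.89 to 0.36 for miR-29b* and -0.23 to 0.20 for miR-29c*. The difference between the cytokine effects ranged from -0.58 to 0.067 for miR-29a and -0.38 to 0.51 for miR-29b.

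The 3 samples a group, 1 reference miRNA and the absence of mRNA data limit all values. No miR-29 value was undetermined, so none rests on the Ct of 40.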
